A study of Mus musculus with 6 samples.

Results

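The genes described here are 10 targets of the transcription factor p53 that act in cell death: Pmaip1, Perp, Bbc3, Bax, Fas, Tnfrsf10b, Trp53inp1, Eda2r, Aen and Phlda3. They were measured by the probe sets of an Affymetrix mouse genome array whose annotation gives 1 of these symbols and no other. That rule found 14 of the 45037 probe sets that are not controls, for 9 of the 10 genes (the array names 18193 genes in this way), and Bax was not analysed here. The genes were chosen by their known role and with the genotype difference on these same arrays in view, so every genotype difference, count and p-value given for them is a description and supports nothing by itself.

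The arrays measured total RNA of whole mouse embryos at embryonic day 8.5, 1 embryo per array, in 3 wild types and 3 littermates that were Tcof1+/-. Tcof1 encodes treacle, a nucleolar protein needed to make ribosomal RNA, and its haploinsufficiency underlies a human craniofacial disorder, Treacher Collins syndrome. The heterozygous state is in every cell of the mutant embryos. No source used here gives the strain, the construction of the allele or the number of litters, and the p-values measure the spread between these 6 embryos.

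When ribosome production fails, free ribosomal proteins bind the ubiquitin ligase MDM2 and p53 accumulates. Part of what p53 then switches on favours death. Noxa and Puma neutralise the survival proteins of the BCL2 family at the mitochondrion, and Fas and the TRAIL receptor pass death signals from the cell surface. Other targets act on survival kinases, autophagy, cell contacts or DNA. In Tcof1 heterozygotes, death of neuroepithelial and neural crest progenitors depends on p53.

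Heterozygotes had higher signal for 5 of the 10 genes in the fit across the whole array: Eda2r, Trp53inp1, Pmaip1, Phlda3 and Perp. The folds ran from 2.42 for Perp to 6.14 for Eda2r. Aen and Bbc3 were also higher in each heterozygote than in each wild type, by 1.65-fold and 1.38-fold, and did not pass. Fas and Tnfrsf10b, the classical death receptors, were too dim to be tested. Signals are linear and in arbitrary units, and folds were computed on the scale log2(signal + 1.87), which understates the change of dim genes.

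The stretches of DNA just upstream of these genes are shown because the genes share a regulator. They come from the RefSeq promoter table of build GRCm38.p6. Windows of 5 of the measured genes were searched (Phlda3, Bbc3, Aen, Fas and Eda2r), and the other measured genes were not searched. The motif searched is the p53 consensus decamer, which is its own reverse complement, so 1 search covers both strands. Capitals mark a match with at most 1 mismatch outside the fixed C and G of its core. The windows of Eda2r (chrX:97377235-97377459, minus strand), Phlda3 (chr1:135765835-135766084, plus strand) and Aen (chr7:78895677-78895926, plus strand) end just before each gene's outermost annotated base.
Eda2r upstream: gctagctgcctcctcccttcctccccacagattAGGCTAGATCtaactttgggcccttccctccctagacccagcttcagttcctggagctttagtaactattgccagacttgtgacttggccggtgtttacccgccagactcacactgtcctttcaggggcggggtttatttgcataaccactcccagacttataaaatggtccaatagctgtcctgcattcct
Phlda3 upstream: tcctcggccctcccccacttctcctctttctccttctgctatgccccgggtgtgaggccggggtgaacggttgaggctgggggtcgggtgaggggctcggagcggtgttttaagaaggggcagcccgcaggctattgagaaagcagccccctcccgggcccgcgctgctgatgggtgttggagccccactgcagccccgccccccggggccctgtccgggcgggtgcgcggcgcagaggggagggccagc
Aen upstream: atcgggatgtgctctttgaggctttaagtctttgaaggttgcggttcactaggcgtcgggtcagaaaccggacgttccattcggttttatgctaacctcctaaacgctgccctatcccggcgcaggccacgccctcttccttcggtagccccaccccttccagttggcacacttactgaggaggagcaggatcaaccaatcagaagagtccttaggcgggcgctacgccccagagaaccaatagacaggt

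The next lines give 30 bases around the matches of Aen (chr7:78895927-78895956) and Bbc3 (chr7:16309486-16309515, chr7:16310105-16310134 and chr7:16310158-16310187), all on the plus strand and all inside the outermost bounds of the gene, since these genes have several starts.
Aen, 121 bases upstream of its second start, exact: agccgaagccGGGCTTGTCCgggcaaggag
Bbc3, 87 bases upstream of its first start, 1 mismatch: ctgcaagcccCGACTTGTCCccagccgcgg
Bbc3, 146 bases upstream of its second start, 1 mismatch: aatggggttcGGGCTCGCCCgcgccccctg
Bbc3, 93 bases upstream of its second start, 1 mismatch: gcgtggccccGGGCTCGCTCgagtcccccg

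An exact decamer lay in 1 of the 8 windows of 250 upstream bases, that of Aen's second start, and in 7.13% of the 32851 windows of the table. With up to 1 mismatch it lay in 4 of 8 windows and in 44.7% of all windows. Aen and Bbc3, which hold the matches shown just above and have several windows each, had the smallest differences among the tested genes. Eda2r, which had the largest, held a match with 1 mismatch 217 bases upstream of its start. Phlda3, which rose, had no match in its window. Whether a match goes with the size of a difference was not tested. The window of Fas had no match either, and the letters of a match are a description of the sequence, not a binding site.

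The arrays shared a scale but differed in a sign of RNA quality or labelling. The authors' scaling put the trimmed mean of every array at 149.9, any pair of arrays had a log2 correlation of 0.952 to 0.959, and bacterial controls with no target in the sample reached at most 8.55 to 13.5 per array, which marks the background. The log2 ratio of the 3' to the 5' probe set of Gapdh was 0.847, 1.036 and 0.841 in wild types 1, 2 and 3 and 0.806, 0.682 and 0.805 in heterozygotes 1, 2 and 3. It separated the genotypes, as the tested genes described here did, and its part in every genotype difference below was not tested. Tcof1 itself, on its brightest probe set, was at 382, 393 and 387 in wild-type embryos 1, 2 and 3 and at 222, 179 and 231 in heterozygotes 1, 2 and 3, so each heterozygote lay below each wild type. Markers of neural tube, neural crest, heart, mesoderm, endothelium and surface ectoderm were present in every embryo, with exceptions for single genes. En1 (neural tube) exceeded the bacterial controls on 3 arrays and Pecam1 (endothelium) on 2. The summed signal of the neural crest markers was 2838 to 3032 in wild types and 2007 to 2235 in heterozygotes. That of the neural tube markers was 1925 to 1983 and 1270 to 1712. Both sums thus separated the genotypes in the direction opposite to the tested genes described here. The single markers, named after their values were seen, did not all do so. Crabp1 made up most of the neural crest sum, with means of 2356 in wild types and 1724 in heterozygotes. Crabp1 and Tfap2b did not overlap between the genotypes, whereas Foxd3, Sox10 and Tfap2a did. Among the neural tube markers Hes5 and En1 overlapped, and Sox1, Sox2, Pax6 and Otx2 did not. The part of these markers in the results was not tested. Macrophage markers overlapped, at 57.9 to 110 and 81.2 to 120. Tpbpa of trophoblast, Prl3c1 of decidua, Ptprc and Aif1 of macrophages and Cd3e of T cells did not exceed the bacterial controls on any array. Other genes of those lists did on some arrays or on all. Csf1r (macrophages) and Hand2 (decidua) did on all 6, and Cd68 and Fcgr1 (macrophages) and Cebpb (decidua) on 5 each. Ascl2 (trophoblast), Prl8a2 (decidua) and Cd79a (B cells) did on 3 each, and Cx3cr1 (macrophages) and Il7r (lymphocytes) on 2 each.

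**Figure D1:**
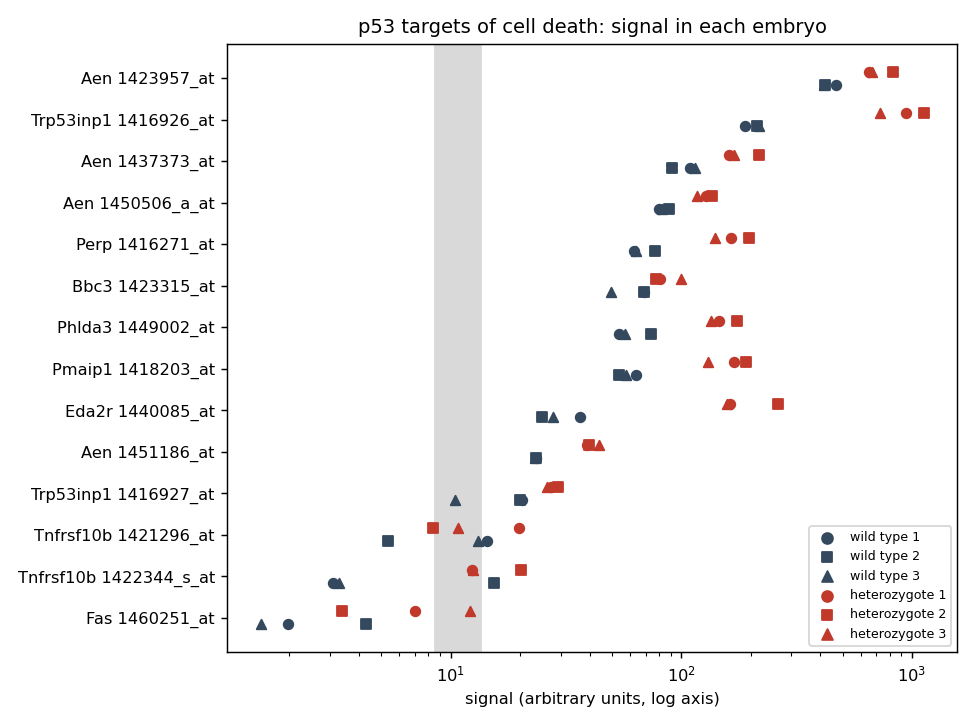
Signal of the 14 probe sets of the p53 targets of cell death in each of the 6 embryos, on a log axis in arbitrary units. Dark points are wild types, red points heterozygotes, and the grey band spans the highest bacterial control of each array (8.55 to 13.5). The genotypes are apart for the 11 brighter probe sets and overlap for Fas and both probe sets of Tnfrsf10b.

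Among the genes of the mitochondrial route, Pmaip1 rose and Bbc3 did not pass. Pmaip1 encodes Noxa, a BH3-only protein that binds the survival protein MCL1. The gene lies on chromosome 18, as Tcof1 does. The part of DNA carried along with the Tcof1 allele was not tested and cannot be told apart from the genotype here. The stretch upstream of Pmaip1 was not searched for the p53 decamer. For Pmaip1, the values were as follows. Its signal was 63.4, 53.5 and 57.3 in wild-type embryos 1, 2 and 3, and 170, 191 and 131 in heterozygotes 1, 2 and 3. Each heterozygote was at least 2.25 times the wild-type mean, and the genotypes did not overlap. This is a log2 difference of 1.45 ± 0.17 (SE; limma adjusted p = 0.0211), which ranked 12th by p among 27022 probe sets tested. The call held without heterozygote 3 (adjusted p = 0.0170) and was lost without any other single embryo (0.0817 without wild type 1, 0.108 without heterozygote 1, 0.103 without wild type 2, 0.104 without heterozygote 2 and 0.0991 without wild type 3). Pmaip1 also lost its call with Xist as a covariate (0.0771) and with the replicate number as a block (0.0875), and kept it with scan day as a block (0.0360).

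Bbc3 encodes Puma, a BH3-only protein that can bind all of the BCL2 survival proteins. Its signal was 68.9, 68.6 and 49.4 in wild-type embryos 1, 2 and 3 and 81.1, 77.9 and 100.1 in heterozygotes 1, 2 and 3. The groups did not overlap, and the gap between them was small. Heterozygotes exceeded wild types by 0.47 ± 0.19 on the log2 scale (SE; limma adjusted p = 0.781). On the first scan day, with 4 arrays, Bbc3 differed by 0.20, and on the second, with 2 arrays, by 0.99. Pmaip1 had the opposite order, with 1.60 on the first day and 1.16 on the second.

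Of the receptors, Eda2r had the largest difference of all members and the second largest increase of all probe sets tested. It encodes a receptor of the tumour necrosis factor family that binds ectodysplasin A2. Signal was 36.2, 24.8 and 27.9 in wild-type embryos 1, 2 and 3, and 163, 264 and 158 in heterozygotes 1, 2 and 3. The lowest heterozygote was 5.32 times the wild-type mean and the highest 8.90 times. In log2 units this is 2.62 ± 0.23 (SE; limma adjusted p = 0.00262), and the call held whichever single embryo was left out (adjusted p 0.00852 to 0.0247).

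Eda2r lies on the X chromosome, so the sex of the embryos bears on it. Xist, the RNA that coats the inactive X, gave signals of 1237, 1435 and 1674 in wild-type embryos 1 and 2 and heterozygote 1, and of 0.587 to 5.12 in the other 3 embryos. Between embryos with Xist signal Eda2r differed by 2.37, and between those without it by 2.79. These values rest on 1 or 2 embryos of each genotype and kind, and the part of sex was not tested. With Xist as a covariate the log2 difference of Eda2r was 2.60 (limma adjusted p = 0.0152). Eda, the gene of the ligand, had a mean of 24.6 ± 5.52 (SD, n = 3) over wild types and of 34.2 ± 7.90 (SD, n = 3) over heterozygotes and did not pass (log2 difference 0.44, SE 0.29). The adaptor gene Edaradd differed by -0.98 with a standard error of 0.38 and did not pass either, and the related receptor gene Edar was too dim to be tested.

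Fas and Tnfrsf10b gave signals near background, so neither a response nor its absence could be measured. Fas was at 1.97, 4.31 and 1.501 in wild-type embryos 1, 2 and 3, and at 6.97, 3.37 and 12.1 in heterozygotes 1, 2 and 3. It exceeded the highest bacterial control in 1 of 6 arrays, heterozygote 3. Tnfrsf10b, the mouse receptor for TRAIL, has a probe set that read 14.4, 5.34 and 13.1 in wild types 1, 2 and 3, and 19.7, 8.37 and 10.8 in heterozygotes 1, 2 and 3. Its other probe set read 3.08, 15.4 and 3.30, and 12.4, 20.1 and 12.6, in the same order. The first exceeded the highest bacterial control on 3 of 6 arrays. The other did on 4, those of wild type 2 and heterozygotes 1, 2 and 3. The log2 differences were 0.23 (SE 0.49) and 1.12 (SE 0.63) and were not tested. The probe sets disagreed on which wild type was highest, and the genotypes overlapped on both, as they did for Fas.

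Trp53inp1 rose on its brighter probe set. It encodes a nuclear protein that works with p53 and its kinase HIPK2 and also takes part in autophagy. The signal was 189, 213 and 218 in wild-type embryos 1, 2 and 3, against 939, 1130 and 723 in heterozygotes 1, 2 and 3. The wild types lay close together, with a SD of 15.5 on a mean of 206, while the heterozygotes spread over 204 (SD) around 931. Trp53inp1 thus differed by 2.14 ± 0.15 (log2, SE; limma adjusted p = 5.37e-04), and the call held without any single embryo (adjusted p 3.18e-04 to 0.00646).

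The second probe set of Trp53inp1, designed from the same sequence record, read 20.5, 20.0 and 10.4 in wild types and 27.2, 29.1 and 26.0 in heterozygotes 1, 2 and 3. Heterozygotes were again all higher, but by 0.69 ± 0.33 (log2, SE), which did not pass. In wild type 3 this probe set did not exceed the bacterial controls, whereas the brighter one was well above it on all arrays. No source used here gives where along the transcript either set of probes lies.

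Perp and Phlda3 rose by nearly the same amount. Perp encodes a membrane protein of desmosomes that p53 also induces during apoptosis. It read 62.5, 76.7 and 63.4 in wild types 1, 2 and 3 and 164, 197 and 140.0 in heterozygotes 1, 2 and 3. Perp was thus higher by 1.28 ± 0.17 (log2, SE; limma adjusted p = 0.0321). Phlda3, whose product competes with the survival kinase AKT for membrane lipids, read 53.7, 73.7 and 56.9 in wild types and 145, 175 and 134.5 in heterozygotes. Its difference was 1.28, SE 0.17 (adjusted p = 0.0372). For both genes every heterozygote was at least 2.07 times the wild-type mean.

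These 2 calls were near the threshold. Perp kept its call without heterozygote 3 (adjusted p = 0.0436) and lost it without any other single embryo (0.0892 without wild type 2 to 0.189 without wild type 1; 0.142, 0.162 and 0.168 without heterozygote 1, wild type 3 and heterozygote 2). Phlda3 lost its call without any single embryo, with adjusted p from 0.0604 without wild type 2 to 0.233 without heterozygote 2 (0.0927 without heterozygote 3, 0.153 without heterozygote 1, 0.1765 without wild type 3 and 0.189 without wild type 1). The log2 differences in those fits stayed between 1.15 and 1.42 for both genes. Both calls were also lost with scan day as a block (limma adjusted p = 0.0504 for Perp and 0.0835 for Phlda3), with Xist as a covariate (0.107 and 0.127) and with the replicate number as a block (0.0875 for each).

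Perp is also an epithelial gene, and the genes of surface epithelium and desmosomes were measured beside it. Of 17 such genes tested, 13 were positive and 4 negative, with a median of 0.14 and a highest value of 0.37, and 0 passed. The desmosomal plaque gene Dsp read 1271, 1087 and 1092 in wild types and 1220, 1548 and 1403 in heterozygotes 1, 2 and 3 (log2 difference 0.27). The claudin gene Cldn7 differed by 0.37 (SE 0.15), the highest value of the list. Perp, at 1.28, thus differed by more than any gene of that list. In whole embryos, a change in the number of cells of a type and a change in RNA per cell cannot be told apart.

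Aen, an exonuclease gene whose product degrades DNA in apoptosis, was measured by 4 probe sets that gave close differences. The brightest read 466, 418 and 413 in wild types and 652, 826 and 671 in heterozygotes 1, 2 and 3, a log2 difference of 0.72 with a standard error of 0.11 (limma adjusted p = 0.0746). The others differed by 0.59, 0.76 and 0.78, with adjusted p from 0.286 to 0.666. On the dimmest, the wild types were 23.4, 23.5 and 23.1 and the heterozygotes 38.9, 39.7 and 43.8. The 3 heterozygotes were above the 3 wild types on all 4 probe sets, and none of the 4 passed under any alternative setting tried.

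**Figure D2:**
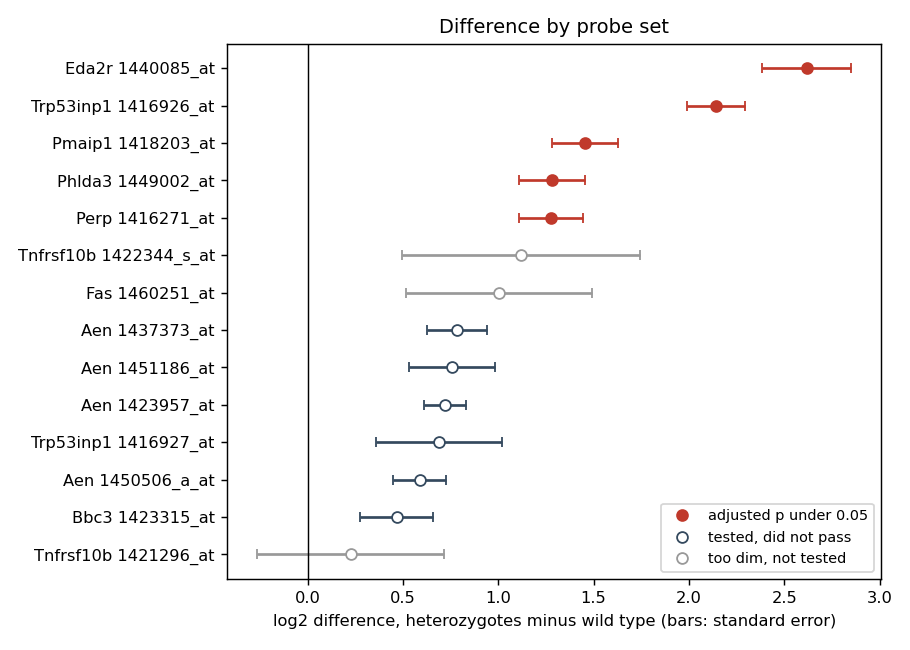
Log2 difference, heterozygotes minus wild type, for the 14 probe sets, with standard errors as bars. Filled red points passed at an adjusted p under 0.05, open dark points were tested and did not pass, and grey points were too dim to be tested. The 5 filled points lie between 1.28 and 2.62, and the 4 probe sets of Aen lie between 0.59 and 0.78.

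Counted over the tested probe sets, 5 of 11 members passed, against a background of 0.0777% of all probe sets tested that were called higher. All 11 separated the genotypes with the heterozygotes above, as 6.0% of all tested probe sets did. These shares are stated for scale only, because the members were picked with this contrast known. The 7 tested genes had a median log2 difference of 1.28, and the median over all tested probe sets was 0.00. The 3 members that were not tested had no place in these counts.

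The heterozygotes differed among themselves. Heterozygote 2 had the highest signal for 6 of the 7 tested genes, all but Bbc3, and heterozygote 3 had the lowest of the 3 heterozygotes for the 5 genes that passed. For Eda2r the deviations from the wild-type mean were 2.41, 3.09 and 2.36 in heterozygotes 1, 2 and 3 on the log2 scale, and for Pmaip1 they were 1.52, 1.69 and 1.15. Bbc3 ran the other way, at 0.39, 0.33 and 0.68. Among all tested probe sets that separated the genotypes upwards, 39.7% were highest in heterozygote 2.

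Heterozygotes 1 and 2 also stood apart in measures other than these genes. For heterozygote 2, the Gapdh ratio was the lowest of all arrays, 0.682. Its hybridisation controls, which are added in equal amount to each array, were 1.44 times the wild-type mean, against 0.956 to 1.12 on the other arrays. The summed signal of 6 yolk sac endoderm genes was 822 in that embryo, the lowest, against up to 14980 among heterozygotes and 1836 to 9547 in wild types. Wild type 1 had the lowest wild-type sum. Among the wild types, Eda2r, Pmaip1, Bbc3 and Aen were highest in that embryo and Trp53inp1, Perp and Phlda3 lowest. Heterozygote 1 had the highest yolk sac sum and the lowest sum of 4 primitive erythroid genes, 202.5, against 3701 to 8052 in wild types. The embryonic globin gene Hbb-bh1 read 146 there, against 3046 to 6187 in wild types and 2565 and 4475 in heterozygotes 2 and 3. The part of these measures in the order of the heterozygotes was not tested. Without heterozygote 2 the log2 differences were 2.38 for Eda2r, 1.99 for Trp53inp1 and 1.33 for Pmaip1.

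**Figure D3:**
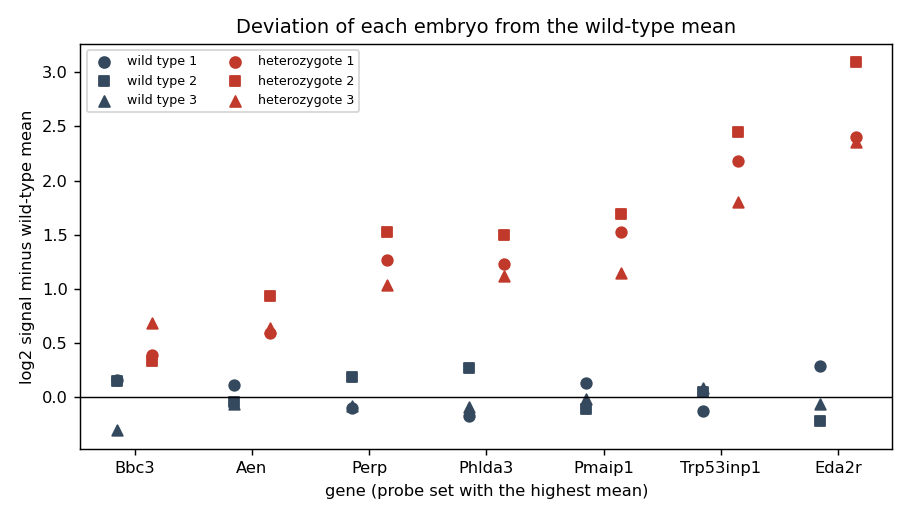
Log2 signal of each embryo minus the wild-type mean for the 7 tested genes, each on its brightest probe set, with dark points for wild types, red points for heterozygotes and symbols for the embryo number. Heterozygote 2 (red square) is the highest for 6 genes, up to 3.09 for Eda2r, and Bbc3 is highest in heterozygote 3 at 0.68.

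The 7 tested genes were higher in heterozygotes on both scan days and in both sexes. For these genes each heterozygote lay above each wild type, so a positive sign in every such subset was fixed in advance. Only the sizes of the differences could vary. On the first day, with replicates 1 and 2 of each genotype, 7 of 7 tested genes were positive with a median of 1.35, and on the second, with replicate 3 of each, 7 of 7 with a median of 1.16. The difference was larger on the first day for 6 of the 7. All 7 were positive between embryos with Xist signal and between those without it. Each genotype was run on fluidics modules of its own, so module and genotype cannot be told apart.

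None of the genes that execute death downstream of these targets passed. Of 13 tested genes of the apoptosome, caspases and their inhibitors, 6 were positive and 7 negative, 0 passed, and the median was -0.05. Apaf1, the scaffold of the apoptosome and itself a p53 target, read 282, 260 and 278 in wild types and 337, 413 and 363 in heterozygotes 1, 2 and 3 (log2 difference 0.43, SE 0.11, limma adjusted p = 0.582). Cycs, the gene of cytochrome c, differed by 0.21 (SE 0.07). For both genes the genotypes did not overlap, although neither passed.

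The partners that Noxa and Puma act on had no call either. Of 4 tested anti-apoptotic BCL2 genes, 0 passed, with differences from -0.02 to 0.20. Mcl1, the target of Noxa and named here after its values were seen, averaged 1631 ± 35.2 over wild types and 1629 ± 78.4 over heterozygotes (SD, n = 3 each), a log2 difference of -0.0035 with a standard error of 0.07. Bcl2l1, the gene of BCL-XL, differed by 0.20 (SE 0.20), and Bcl2l2, the gene of BCL-W, by 0.03 (SE 0.16).

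Other BH3-only and effector genes were mostly on the negative side. Of 9 tested, 7 were negative and 2 positive, with a median of -0.27, and 0 passed. Bad, whose product senses growth factor signals, read 163, 215 and 212 in wild types and 135, 133 and 151 in heterozygotes, a log2 difference of -0.48 with a standard error of 0.14 (limma adjusted p = 0.654). Bmf, whose product is tied to the cytoskeleton, differed by -0.27 (SE 0.10). The groups did not overlap for either gene.

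The death receptor route beyond the receptors showed no call. Of 8 tested ligands, adaptors and inhibitors, 2 were positive and 6 negative, with a median of -0.07 and 0 passing. Tnfrsf1a, a receptor for tumour necrosis factor, differed by 0.26 (SE 0.15) and Daxx, which binds the Fas death domain, by -0.13 (SE 0.10). The ligand genes Fasl and Tnfsf10, named here after their values were seen, were too dim to be tested, at 7.48 ± 5.80 and 7.84 ± 2.74 in wild types and 2.43 ± 2.27 and 16.4 ± 9.73 in heterozygotes (SD, n = 3 each).

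Other p53 targets gave a scale for the members. In a list of 10 further targets linked to death, 7 were tested, 6 were positive and 1, Zmat3, passed. Zmat3, which encodes an RNA-binding zinc finger protein, differed by 1.10 (SE 0.11, limma adjusted p = 0.00664). Ei24, an endoplasmic reticulum protein gene, differed by 0.40 (SE 0.08, adjusted p = 0.238). Among 9 tested targets of cell cycle arrest, 8 were positive and 2 passed, with a median of 0.51. Those were Cdkn1a, the gene of the kinase inhibitor p21 (3.13, SE 0.24), and Ccng1, the gene of cyclin G1 (2.51, SE 0.12). Of 7 tested genes of the p53 family and its regulators, 5 were positive and 0 passed. Trp53, the gene of p53 itself, was not among them, since no probe set was found for it under the annotation rule. Mdm2, the gene of the main p53 ubiquitin ligase, differed by 0.40 (SE 0.125) and Ppm1d, a phosphatase gene that damps p53, by 0.37 (SE 0.17). All these lists were put together with earlier results in view.

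**Figure D4:**
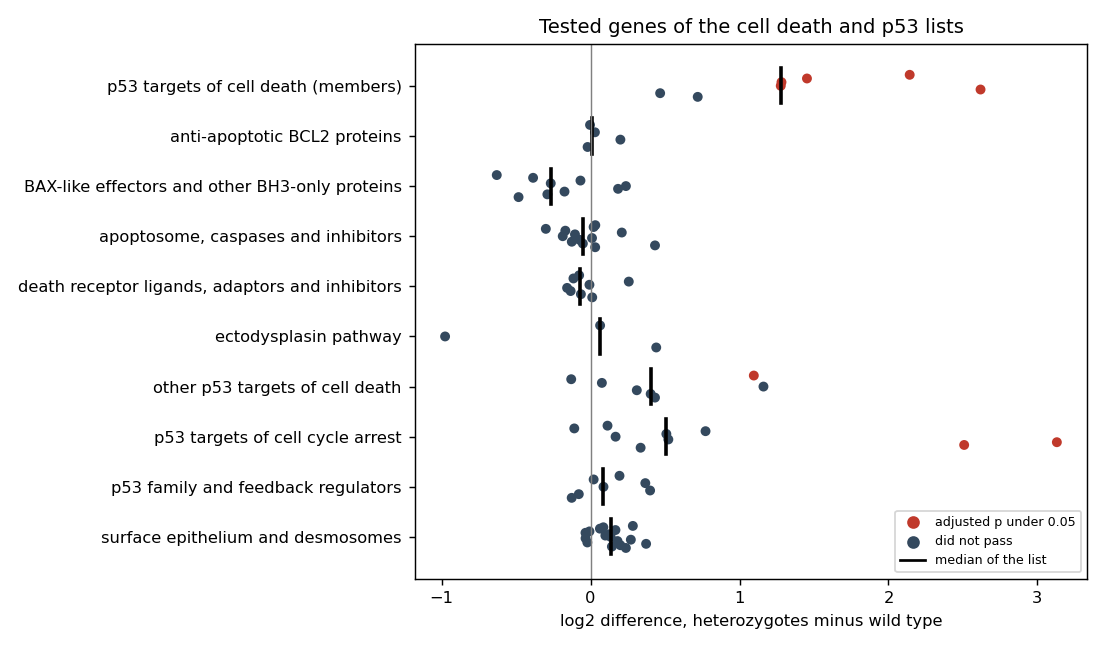
Log2 difference, heterozygotes minus wild type, of each tested gene in the lists of cell death and p53 genes, 1 probe set per gene. Red points passed at an adjusted p under 0.05 and black bars are list medians. The members' median is 1.28, and the medians of the lists other than the 2 of p53 targets of death and the 1 of arrest lie between -0.27 and 0.14.

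The genes most like the members in pattern were found by correlation over the 6 arrays with the mean standardised profile of the 7 tested members. Each gene entered with its brightest probe set, if that was tested and its annotation gave 1 symbol. Outside the members the 5 highest were Scarb2 (r = 0.995), Ccng1 (0.993), Ddit4l (0.992), Slc19a2 (0.991) and Usp14 (0.991). These correlations mostly follow the genotype difference that all points share. The sizes differed widely: Slc19a2 and Ddit4l differed by 1.66 and 1.74, whereas Scarb2, at 428 ± 7.21 and 498 ± 10.8, and Usp14, at 898 ± 9.88 and 1058 ± 36.8 (SD, n = 3 each), differed by 0.22 and 0.24 and did not pass. Of the members themselves, Eda2r followed the profile most closely (r = 0.989) and Bbc3 least (r = 0.788). Each member is itself part of the profile, so these values are partly built in.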

How the data were processed

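Total RNA (100 ng) of each embryo was amplified and biotin-labelled in 2 cycles, and 20 µg of cRNA was hybridised to its own array, per the labels' protocols. The deposited values are linear intensities, 1 for each probe set on each array. GCOS was used, per the submitters' processing notes, and no source used here gives its version or algorithm. Other information per array, such as scan day and fluidics module, came per the file headers of the instrument records, which hold no expression values. The genotype was taken from the sample titles.

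Here, controls were left out, values were taken to log2(signal + 1.87), 1.87 being the 10th percentile, the dimmest 40% by mean log2 signal were dropped, and 27022 were fitted with limma 3.58.1 in R 4.3.3 (eBayes with an intensity trend, two-sided, Benjamini-Hochberg at 0.05 over all tested). Standard errors of untested probe sets are plain ones. Genes with several probe sets are represented by the one with the highest mean. Members and lists were chosen with earlier results of these data known. The named genes were the members, Tcof1, Xist, the 2 genes of each list with the smallest p and the 5 most similar genes; others are said to be chosen afterwards. A planned comparison of receptor proteins was not run, as no protein sequences were used here. The number of arrays limits precision. Figures were drawn with matplotlib 3.10.9.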

Additional observations from a re-analysis of the deposited data

Results flagged for a closer look

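A probe set of Tnfrsf10b, the TRAIL receptor gene, went in opposite directions in the sexes: it differed by 0.99 on the log2 scale between embryos with Xist signal and by -0.39 between those without it. Every heterozygote lay above the wild types in the first case and below in the second. The difference between the sexes was not tested, each sex holds 1 or 2 embryos of a genotype, and the signals, from 5.34 to 19.7, were too dim for the gene to be tested.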

How the results depend on the processing

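The 11 tested member probe sets kept a positive difference under every alternative that gave them a value. The alternatives were 2 other pseudocounts, quantile normalization, equal medians, no filter, a filter at 60%, no intensity trend and array weights. Further ones put replicate, scan day or Xist in the model, left out each embryo, or took each scan day or sex alone. The filter at 60% left out the dimmer Trp53inp1 probe set and the dimmest of Aen. Every heterozygote lay above every wild type on these probe sets, so most of these settings could not have changed the sign. Only quantile normalization, equal medians and Xist in the model could have done so. The 22 calls over the array became 0 without the intensity trend in limma's variance prior (1571 at an unadjusted p under 0.05), 10 with Xist as a covariate, 14 with scan day as a block, 10 with the replicate block, and 8 to 20 with 1 embryo left out. The 5 member calls became 0 without the trend (11 at an unadjusted p under 0.05, smallest limma adjusted p = 0.128), 2 with Xist and 2 with the replicate block (Pmaip1, Perp and Phlda3 lost in both), 3 with scan day (Perp and Phlda3 lost), and 2 to 4 with 1 embryo left out. Eda2r and Trp53inp1 kept their calls in all of these but the fit without the trend. The causes were not tested. Embryos with the same replicate number were not treated as pairs in the main fit. Of 3 such pairs, 0 had deviations that correlated above 0. No source used here says whether they were paired by litter or handling, and these correlations cannot decide it. Signals near background limit Fas and Tnfrsf10b.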
